A study of Solanum lycopersicum with 96 samples.

Results

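The interior of chromosome 5 of tomato (Solanum lycopersicum) from 29 to 55 Mb was examined in 8 lists of genomic regions made by whole-genome bisulfite sequencing of seed DNA. Bisulfite turns unmethylated cytosine into uracil, so reads tell methylated from unmethylated positions. Members were chosen by position alone, as all listed regions of chromosome 5 with a midpoint in that interval. They numbered 9298 of the 237372 regions in the 8 lists. The interval itself was picked because listing differed there between the cultivars, so the values that compare Bolstar with Moneyberg describe that choice and carry no test.

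Bolstar and Moneyberg are tomato cultivars whose mother plants were treated with elicitors, compounds that prime plant defence. BABA is beta-aminobutyric acid, MeJA is methyl jasmonate, an ester of the hormone jasmonic acid, and Ina is named here as in the labels. Bolstar seed came from mothers given BABA in time window 2 (BABA_TW2), mothers given Ina in time window 2 (Ina_TW2), and control mothers. Moneyberg seed came from BABA_TW2, BABA_TW3, Ina_TW2 and MeJA_TW3 mothers, where TW3 is time window 3, and from control mothers. The labels describe 12 libraries a group, 2 for each of 6 replicates, while the series text counts 90 libraries in all and does not mention BABA_TW3. DNA was extracted from pools of 10 seeds, taken from seed batches of 6 plants per treatment. The treated batches were taken because their daughter plants resisted pathogens better, per the series text, so they are no random draw of treated seed. The labels name the tissue as seed with no dissection, so embryo, endosperm and seed coat cannot be told apart. A group is represented by 1 pooled list, so no value below has a replicate error, and the read depth behind a region is unknown.

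In plants, cytosines are methylated in the CG, CHG and CHH contexts, each kept up by its own enzymes: MET1 for CG, chromomethylases for CHG, and RNA-directed methylation or chromomethylases for CHH. The interiors of tomato chromosomes are gene-poor heterochromatin, packed with transposable elements that this methylation keeps silent. Some differences in plant methylation pass through meiosis to the next generation. The listed regions bear names that begin with HYPO, but no file gives a methylation level. The words listed, gained and lost therefore refer to presence in a list and to no direction of methylation.

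Bolstar had fewer and longer members than Moneyberg, and they covered more of the interval. Member counts were 896 in Bolstar BABA_TW2, 1109 in Bolstar Ina_TW2 and 992 in Bolstar control. Moneyberg had 1263 in BABA_TW2, 1242 in BABA_TW3, 1256 in Ina_TW2, 1215 in MeJA_TW3 and 1325 in its control. All 3 Bolstar lists thus lay below all 5 Moneyberg lists. The members covered 79.4% of the 26 Mb in Bolstar BABA_TW2, 78.8% in Bolstar Ina_TW2 and 79.3% in Bolstar control. In Moneyberg they covered 76.5% in BABA_TW2, 76.6% in BABA_TW3, 77.0% in Ina_TW2, 76.6% in MeJA_TW3 and 76.5% in the control. The groups of lists did not overlap, and the mean difference was 2.55 percentage points, or 20.6 Mb in Bolstar against 19.9 Mb in Moneyberg. The spread between lists of a cultivar, which differ in treatment, was 0.316 points (SD, 3 Bolstar lists) and 0.223 points (SD, 5 Moneyberg lists). Between the control lists alone the difference was 2.86 points. Restricted to the 3 groups that each cultivar has in common it was 2.52 points.

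The lists also differ in their own lower limit, the lowest score found in a whole list. It was 85 in Bolstar BABA_TW2, 71 in Bolstar Ina_TW2 and 78 in Bolstar control, against 65 to 71 in the Moneyberg lists. In the interval the lowest member score was 86 in Bolstar BABA_TW2, 72 in Bolstar Ina_TW2 and 80 in Bolstar control, against 66 to 71 in the Moneyberg lists. The score is a whole number that the authors gave each region. Its meaning is not stated, and it grew with length, with Pearson correlations across members of 0.951 to 0.963 in Bolstar and 0.940 to 0.946 in Moneyberg. When every list was held to a score of at least 85, the highest of the 8 lower limits, the cultivar difference was 4.39 points. That cut removed 0 members of Bolstar BABA_TW2, 66 of Bolstar Ina_TW2 and 18 of Bolstar control, but 80 to 169 of each Moneyberg list. Low scores go with short members, which were more common in Moneyberg. The larger value is thus not read as a stronger difference. Member counts were then 896 to 1043 in Bolstar and 1128 to 1156 in Moneyberg, so every Bolstar list again had fewer.

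Along the interval the Bolstar excess was spread over most of its length. In 17 of the 26 bins of 1 Mb every Bolstar list had a larger listed share than every Moneyberg list (65.4%), and in 1 bin every Bolstar list had a smaller one (3.85%; 7.69% without Bolstar Ina_TW2 or without MeJA_TW3). Over all 800 complete bins of the 12 chromosomes these shares were 19.5% and 16.9%. Because the interval was picked for this contrast, nothing is read from the distance to that background. The mean share was higher in Bolstar in 24 bins, with a median difference over bins of 2.62 points. With 0.5 Mb bins, 22 of 52 separated with Bolstar higher (42.3%), and with 2 Mb bins 11 of 13 did (84.6%).

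**Figure D1:**
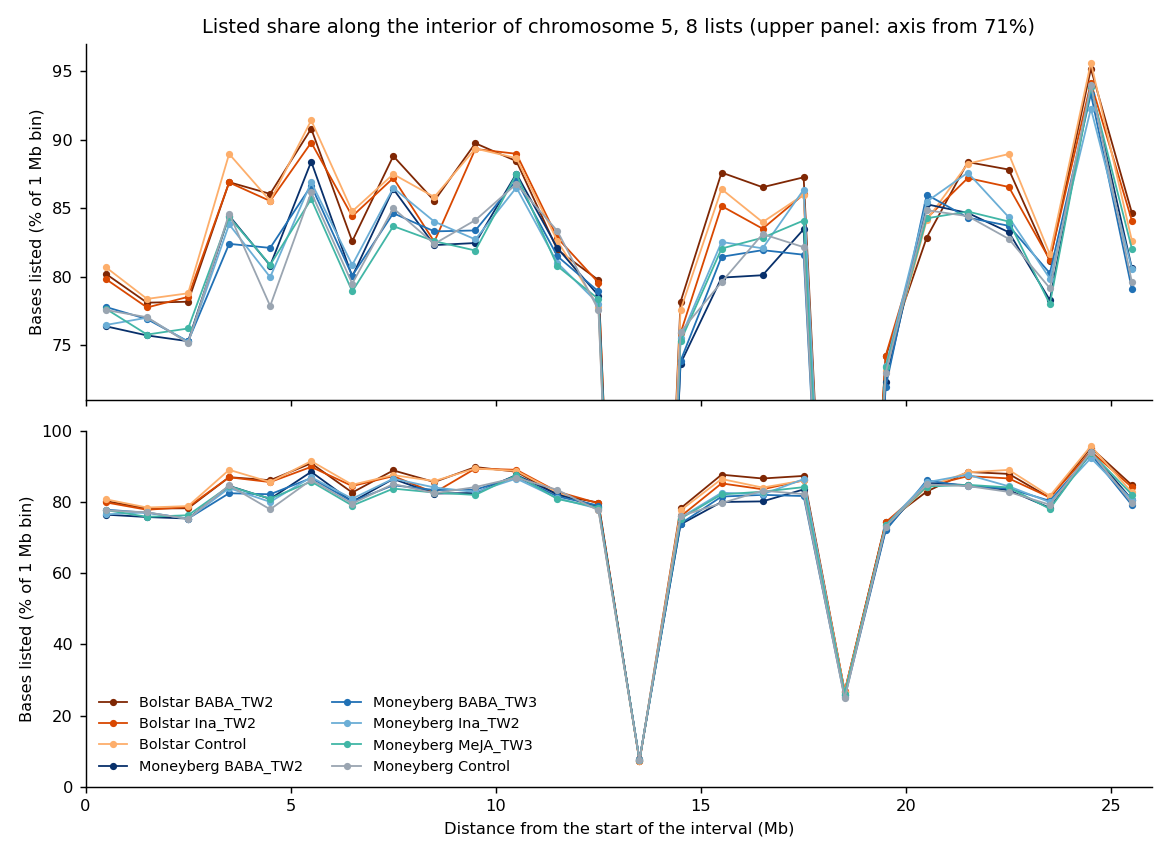
Listed share (percent of bases in each 1 Mb bin, vertical axis, from 71% in the upper panel and from 0 in the lower) against distance from the start of the interval (Mb), with 1 line per list. Bolstar lines run above Moneyberg lines over most bins, and all 8 lists drop together in the bins that begin 13 and 18 Mb from the start.

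The 3 bins with the largest excess lay at 38 to 39, 33 to 34 and 44 to 45 Mb. From 38 to 39 Mb the listed share was 89.8% in Bolstar BABA_TW2, 89.3% in Bolstar Ina_TW2 and 89.4% in Bolstar control. The Moneyberg lists held 82.5% in BABA_TW2, 83.4% in BABA_TW3, 82.7% in Ina_TW2, 81.9% in MeJA_TW3 and 84.1% in the control. Here the cultivars stood 6.55 points apart on average, while the Bolstar lists lay within 1 point of each other. The means from 33 to 34 Mb were 85.7% in Bolstar and 80.3% in Moneyberg, and those from 44 to 45 Mb were 86.4% and 81.1%. Of the 5 Moneyberg lists in the bin at 33 Mb, the control was lowest, at 77.9%.

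Only 2 bins had a lower mean in Bolstar. From 49 to 50 Mb the means were 83.8% in Bolstar and 85.2% in Moneyberg, and the lists overlapped. The third lowest difference was above 0, from 40 to 41 Mb, with 82.5% in Bolstar and 81.8% in Moneyberg. From 42 to 43 Mb the share was 7.23% in each of the 3 Bolstar lists and 7.54% to 7.70% in the Moneyberg lists. That bin is nearly empty in every list, because an unlisted stretch of 938 kb runs from 42099448 to 43037253. A second such stretch, 803 kb from 47332721 to 48135241, lies mostly in the bin from 47 to 48 Mb, where shares were 26.7% to 26.8% in Bolstar and 24.8% to 26.1% in Moneyberg. The next longest spans 35.4 kb, from 41478487 to 41513873. The long pair makes up 39.4% of the 4.42 Mb of the interval that no list holds. No genome sequence of the lists' build was used here, so what lies in these stretches is not described. The fullest bin was 53 to 54 Mb, with 94.2% to 95.6% in the Bolstar lists and 92.3% to 94.0% in the Moneyberg lists.

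**Figure D2:**
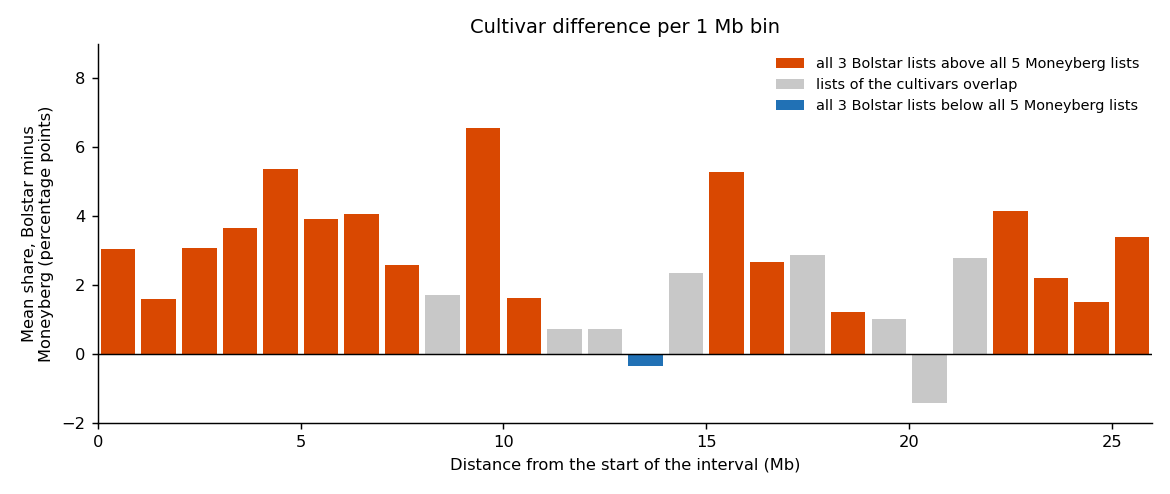
Mean listed share of the 3 Bolstar lists minus that of the 5 Moneyberg lists (percentage points) in each 1 Mb bin, by distance from the start of the interval (Mb). Orange bars mark the 17 bins in which all Bolstar lists lie above all Moneyberg lists, the blue bar the single bin with the reverse, and grey bars the 8 bins in which they overlap.

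The edges of the interval fall in unlisted sequence, and no region of any list crosses 29 or 55 Mb. The last region before it in Bolstar control ran from 28996403 to 28999835, and the first inside from 29006229 to 29025133. In Moneyberg control the last before it ran from 28985333 to 28996097, and the first inside from 29006229 to 29020005. At the far end the last member ran from 54920368 to 54998507 in Bolstar control and from 54965207 to 54993683 in Moneyberg control. All 8 lists resume with the same region, from 55002982 to 55008805. Just outside, the bin from 28 to 29 Mb still had 73.0% in Bolstar and 69.4% in Moneyberg, while the bin from 55 to 56 Mb had 81.2% and 80.8%.

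Median member length was 17.0 kb in Bolstar BABA_TW2, 13.9 kb in Bolstar Ina_TW2 and 15.3 kb in Bolstar control. Moneyberg medians were 11.8 kb in BABA_TW2, 12.5 kb in BABA_TW3, 11.8 kb in Ina_TW2, 12.7 kb in MeJA_TW3 and 11.3 kb in the control. Every Bolstar median exceeded every Moneyberg median. Medians of whole lists were 12.51 kb in Bolstar BABA_TW2, 10.39 kb in Bolstar Ina_TW2 and 11.52 kb in Bolstar control, against 9.63 to 10.41 kb in Moneyberg. Longer regions in Bolstar are thus not particular to the interval, though whole lists overlapped at Bolstar Ina_TW2. Members of 50 kb or more numbered 86, 50 and 63 in Bolstar BABA_TW2, Ina_TW2 and control, and 27 to 35 in the Moneyberg lists. They held 15.7% to 30.04% of the covered bases in Bolstar and 8.97% to 11.2% in Moneyberg. With all lists at the common score minimum the medians still did not overlap, at 14.7 to 17.0 kb in Bolstar and 12.7 to 13.7 kb in Moneyberg.

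**Figure D3:**
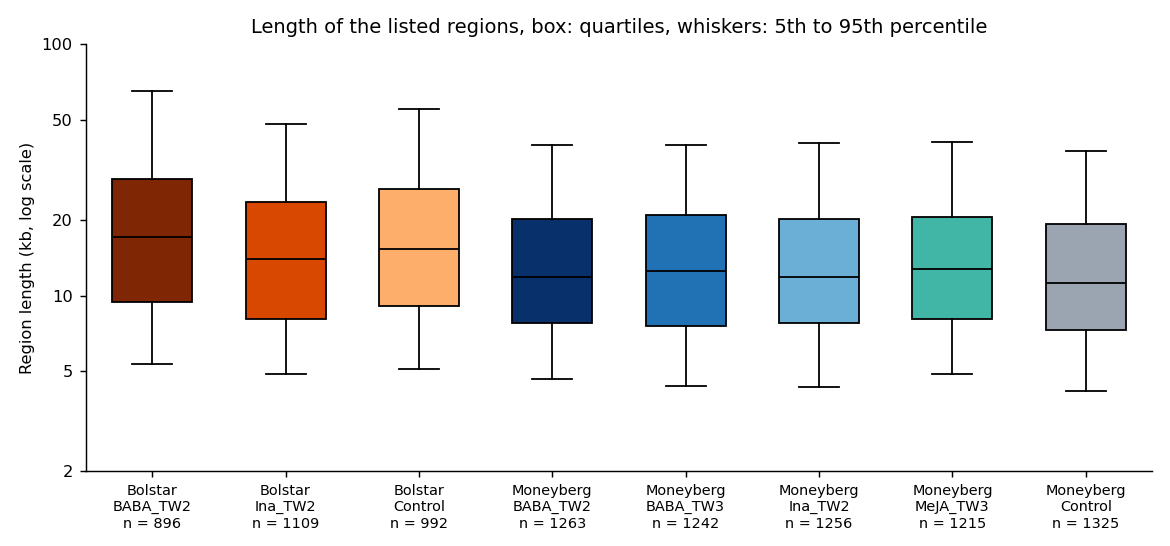
Length of the listed regions (kb, log scale) in each list, with the number of regions under each name, boxes for the quartiles with the median as a line, and whiskers from the 5th to the 95th percentile. The 3 Bolstar medians, 13.9 to 17.0 kb, lie above the 5 Moneyberg medians, 11.3 to 12.7 kb.

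The longest member of the interval stood in Bolstar BABA_TW2, from 29872073 to 30037925, 166 kb with a score of 3038. The same stretch was divided into 3 members in Bolstar Ina_TW2 and in Bolstar control, 5 in Moneyberg BABA_TW2 and in MeJA_TW3, 6 in BABA_TW3 and in Moneyberg Ina_TW2, and 7 in Moneyberg control. Bolstar control and Bolstar Ina_TW2 had their longest members at the same start, 32959654, of 126 kb and 114 kb. Moneyberg Ina_TW2 and MeJA_TW3 shared theirs, 117 kb from 31850655 to 31967323 with a score of 2262, the highest density of these longest members at 19.4 per kb. Moneyberg BABA_TW2 and Moneyberg control shared a member of 96.9 kb from 49542747 to 49639613, which was divided into 3 members in every Bolstar list. The longest of BABA_TW3 was 103 kb, from 39409695 to 39513119.

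Score per kb of covered sequence was slightly lower in Bolstar. It was 16.2 in Bolstar BABA_TW2, 16.3 in Bolstar Ina_TW2 and 16.3 in Bolstar control, against 16.4 in each Moneyberg list. The difference of the means was -0.125 per kb, or under 1%, and the lists of the cultivars did not overlap. Whole lists stood at 17.2 per kb in Bolstar and 17.3 per kb in Moneyberg. Across the 26 bins the cultivar means of this density ran from 15.0 to 17.9 per kb in Bolstar and from 15.0 to 18.0 per kb in Moneyberg. The densest bin was 54 to 55 Mb in either cultivar.

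The extra Bolstar bases lay chiefly at the edges of regions and in gaps between them, and little in separate regions. Bolstar control had 1.43 Mb that Moneyberg control lacked, and Moneyberg control had 0.685 Mb that Bolstar control lacked. Of the 1.43 Mb, 0.483 Mb (33.8%) filled 517 whole gaps between neighbouring Moneyberg control members. Another 0.0951 Mb (6.66%) lay in the 14 Bolstar control members with no base in Moneyberg control, and the remaining 0.851 Mb (59.5%) extended regions that both lists hold. Of the 0.685 Mb in Moneyberg control alone, 0.130 Mb (19.0%) filled 214 gaps, 0.241 Mb (35.2%) lay in 44 members of its own and 0.314 Mb (45.9%) extended shared regions.

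Moneyberg control left 1324 gaps between its members, and the Bolstar lists filled more of them than the Moneyberg treatments did in each class of gap length. Bolstar BABA_TW2 filled 42.4% of them whole, Bolstar Ina_TW2 35.4% and Bolstar control 39.0%. The Moneyberg treatments filled 11.8% (BABA_TW2), 12.9% (BABA_TW3), 12.5% (Ina_TW2) and 12.8% (MeJA_TW3). By count, most filled gaps were short, but the longer ones held more bases. Of the 0.483 Mb that Bolstar control filled, 0.0972 Mb lay in gaps under 1 kb and 0.0564 Mb in gaps of 1 to 2 kb. Gaps of 2 to 5 kb held 0.164 Mb and those of 5 kb or more 0.165 Mb. Of the 559 gaps under 1 kb, the Bolstar lists filled 69.1% to 78.2% and the Moneyberg treatments 25.9% to 27.2%. Of the 261 gaps of 2 to 5 kb, the Bolstar lists filled 14.2% to 23.0% and the Moneyberg treatments 1.92% to 4.60%. No share of filled gaps, here or for Bolstar control below, was taken over the 12 chromosomes. Nor was the split of bases given above. They are thus not read as traits of the interval.

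Gaps of Bolstar control were also filled more often by lists of the other cultivar, but by a smaller margin. There were 991, of which Bolstar BABA_TW2 filled 18.2% and Bolstar Ina_TW2 8.98%. Moneyberg BABA_TW2 filled 23.3%, BABA_TW3 22.4%, Moneyberg Ina_TW2 23.8%, MeJA_TW3 23.8% and Moneyberg control 21.6%. The Bolstar treatments lay below the Moneyberg lists clearly only for the 397 gaps under 1 kb, of which they filled 21.2% to 40.6%, against 49.4% to 54.2% in Moneyberg. For the longer classes the cultivars overlapped or met. Of the 190 gaps of 2 to 5 kb, Bolstar BABA_TW2 filled 5.26% and Bolstar Ina_TW2 1.05%, against 4.21% to 7.37% in the Moneyberg lists.

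**Figure D4:**
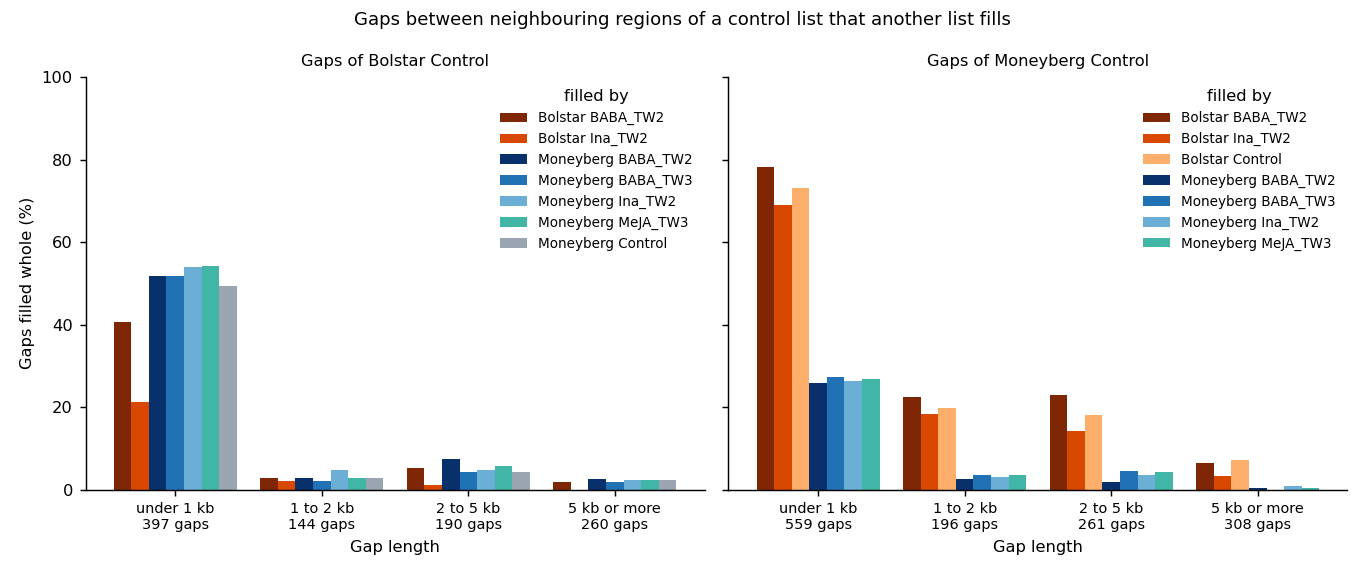
Share of the gaps between neighbouring regions of Bolstar control (left) and Moneyberg control (right) that each other list fills whole (percent), by gap length, with the number of gaps under each class. Bolstar lists fill 69.1% to 78.2% of the Moneyberg control gaps under 1 kb, against 25.9% to 27.2% for the Moneyberg treatments.

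Members of Bolstar control often spanned several of Moneyberg control. Of its 992 members, 353 (35.6%) touched, that is shared at least 1 base with, 2 or more members of Moneyberg control, while 188 of the 1325 Moneyberg control members (14.2%) touched at least 2 of Bolstar control. The most divided was the Bolstar control member from 40526539 to 40590002, 63.5 kb with a score of 991, under which Moneyberg control had 6 members covering 98.1% of its bases. The other Bolstar lists had 1 (BABA_TW2) and 2 (Ina_TW2) members there, and the Moneyberg treatments 3 or 4. Exact borders were shared less between the controls than between treatment and control. Of Bolstar control members, 20.7% had the same start and end as a Moneyberg control member, a set that makes up 15.5% of Moneyberg control. Of treatment members, 46.1% to 54.4% matched a member of their own control exactly.

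Overlap was highest within a cultivar. The Jaccard index, bases in both lists over bases in either, averaged 0.956 over the 3 pairs within Bolstar (0.952 to 0.961), 0.9499 over the 10 pairs within Moneyberg (0.946 to 0.953) and 0.905 over the 15 pairs between cultivars (0.900 to 0.910). The lowest pair within a cultivar thus stood above the highest between them. That the mean within either cultivar exceeded the mean between cultivars is not particular to the interval. It held in the interior of every other chromosome, taken without the first and last 5 Mb. On chromosome 10 the means were 0.954 within Bolstar, 0.956 within Moneyberg and 0.916 between cultivars, and on chromosome 12 they were 0.953, 0.951 and 0.902. The pair of BABA_TW2 lists of Bolstar and Moneyberg had 0.903 and the pair of Ina_TW2 lists 0.908, next to 0.901 for the controls. These pairs are among the 15 between cultivars, so their place within that range was fixed in advance. Its ends were pairs of unlike groups, Bolstar control with Moneyberg Ina_TW2 (0.910) and Bolstar BABA_TW2 with Moneyberg control (0.900).

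Of the 21.6 Mb listed anywhere in the interval, 83.3% were in all 8 lists, compared with 76.4% over the 12 chromosomes. Listing was also denser here, with 76.5% to 79.4% of the interval covered. Whole lists covered 55.5% to 56.1% of the 12 chromosomes, each taken to its last listed base. Bases in every Bolstar list and no Moneyberg list came to 0.416 Mb, and bases in every Moneyberg list and no Bolstar list to 0.156 Mb. The first is 4.82% and the second 1.70% of such bases over the 12 chromosomes, while the interval holds 4.29% of all bases listed anywhere. Without Bolstar Ina_TW2 the Moneyberg value was 0.273 Mb, without Bolstar BABA_TW2 0.254 Mb, and without Bolstar control 0.236 Mb. The counts are not symmetric, since there are 3 Bolstar and 5 Moneyberg lists. With the 3 groups that both cultivars have, the values were 0.626 Mb for Bolstar and 0.183 Mb for Moneyberg. Leaving out lists can only keep or enlarge such sets, so the direction of these changes was fixed in advance.

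The 369 segments in every Bolstar list and no Moneyberg list were short, with a median of 0.372 kb, and 177 of them extended an edge, 187 filled a gap and 5 stood apart from any Moneyberg region. The longest, from 38713130 to 38722074 (8.95 kb, score 102), was listed with the same borders and score in all 3 Bolstar lists. The second, from 54720862 to 54728837 (7.98 kb, score 107), was likewise the same in all 3. Further ones extended an edge from 29886356 to 29893606 (7.25 kb) and from 45349397 to 45356539 (7.14 kb). The fifth, from 38828298 to 38835382 (7.09 kb), filled a gap inside a member that ran from 38823833 to 38847733 with a score of 313 in every Bolstar list.

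In the other direction 156 segments stood in every Moneyberg list and no Bolstar list, with a median of 0.250 kb. The longest, from 48492579 to 48501576 (8.998 kb), was the common part of members scored 94 to 110 in the 5 lists. The next, from 41683336 to 41691632 (8.30 kb), was the first part of a member that ended at 41697527 with a score of 171 in each Moneyberg list. Others ran from 48557473 to 48564962 (7.49 kb), from 30443355 to 30450311 (6.96 kb) and from 43802219 to 43808634 (6.42 kb). The last of these filled a gap, inside members that began at 43780148 in all 5 lists.

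Some members were the same throughout. Start and end were identical in all 8 lists for 104 intervals, with a median length of 9.39 kb, which are 7.85% to 11.6% of a list's members. Over the 12 chromosomes 2997 intervals were identical, in whole lists of 24151 to 32856 regions, so the 104 are not read as a trait of this part. Their scores were compared as well. The score was also the same in all lists for 95 of the 104. The longest ran from 51742047 to 51802522, 60.5 kb with scores of 861 to 864. The next were 30.02 kb from 35602352 to 35632374 (score 521 throughout) and 28.9 kb from 41273525 to 41302380 (score 620 throughout).

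Set directly against each other, the controls differed in few whole members. Of 992 Bolstar control members, 14 had no base in Moneyberg control (1.41%, exact 95% interval 0.774% to 2.36%), against 4.3% over the 12 chromosomes. Of 1325 Moneyberg control members, 44 had no base in Bolstar control (3.32%, 2.42% to 4.43%), against 10.1% over the 12 chromosomes. Both shares lay below those of the 12 chromosomes. Listed regions were shorter there, with whole-list medians of 11.5 kb in Bolstar control and 9.63 kb in Moneyberg control, and covered less of the sequence. The part of this in the lower shares was not tested. The exact 95% intervals reflect only how many regions were counted, here and below, and say nothing of variation among plants. Of the 44, 34 had scores below the Bolstar control limit of 78. With both lists at the common minimum the order turned, with 37 of 974 members in Bolstar control alone and 8 of 1156 in Moneyberg control alone. No share over the 12 chromosomes was taken in that setting, so the turn is not read as a trait of the interval.

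The Bolstar control member with the highest score among the 14 ran from 41466490 to 41478486, 11.997 kb with a score of 139. It was touched by both other Bolstar lists and, of the Moneyberg lists, by BABA_TW3. Next came 33870954 to 33879241 (score 126) and 51309700 to 51316897 (score 108), each touched by both other Bolstar lists, the first also by MeJA_TW3 and the second by no Moneyberg list. After the member at 54720862 already described, the fifth ran from 54186128 to 54194598 (score 103). Among the 44, the top score was 140, from 54035719 to 54049240 (13.5 kb), which was touched by every list except Bolstar control. The region from 38866850 to 38877846 (score 135) was absent from Bolstar control and Bolstar BABA_TW2 but touched by the other 6 lists. The same pattern held for 46273179 to 46282636 (score 108) and 31019060 to 31027371 (score 99), while 46154265 to 46162256 (score 102) was absent from Bolstar control only.

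Treatment was compared with control within each cultivar to see how many members were lost (in the control list with no base in the treatment list) or gained (the reverse). Every count was small beside the number of members. Treatments of a cultivar share its control list, so their counts are not independent. All counts depend on what is taken as shared: with a reciprocal overlap of 50% in place of 1 base, 102 to 230 members were lost and 116 to 219 gained. No share over the 12 chromosomes was taken under that rule or at the common minimum. The shares that follow use 1 base and the lists as deposited. The shares lost and gained lay below those over the 12 chromosomes in all 6 comparisons. Whole lists cover less of their sequence (55.5% to 56.1%, against 76.5% to 79.4% in the interval) and hold shorter regions. The part of this in the lower shares was not tested, so no stability of the interval is read from them.

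Bolstar BABA_TW2 had lost 28 of 992 control members (2.82%, 1.88% to 4.05%), against 7.07% over the 12 chromosomes. It had gained 4 of its 896 members (0.446%, 0.122% to 1.14%), against 2.67%. Of the lost, 11 had scores under its own limit of 85. The highest-scoring lost member ran from 32785568 to 32794199 (8.63 kb, score 101) and was touched by all 5 Moneyberg lists but by no other Bolstar list. So was the third, from 29177378 to 29182942 (score 86). The second, from 36966711 to 36970461 (score 87), was touched by every other list. The gained were led by 44185068 to 44191379 (score 103), 46154265 to 46162256 (score 102) and 31580406 to 31588264 (score 101).

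Bolstar Ina_TW2 had lost 10 control members (1.01%, 0.484% to 1.85%), against 2.86% over the 12 chromosomes. It had gained 30 of its 1109 members (2.71%, 1.83% to 3.84%), against 7.07%. Of the gained, 21 had scores below the control's limit of 78. At the common minimum the order turned, with 15 of 974 lost and 4 of 1043 gained. The highest-scoring lost members ran from 49338826 to 49350245 (11.4 kb, score 131) and from 43356110 to 43366610 (score 111), each touched by the other 6 lists. The third, from 45253919 to 45266088 (score 110), was also missing from Moneyberg Ina_TW2. The top gained member, from 44788604 to 44795169 (score 117), was touched by all lists but Bolstar control. Next came 31961016 to 31967323 (score 86), touched by all 5 Moneyberg lists, and 45731877 to 45739183 (score 84), touched by Bolstar BABA_TW2 only.

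In Moneyberg, BABA_TW2 had lost 43 of 1325 control members (3.25%, 2.36% to 4.35%), against 4.61% over the 12 chromosomes. It had gained 13 of 1263 (1.03%, 0.549% to 1.75%), against 2.91%. It had the highest-scoring lost member of any treatment in the interval, from 38308616 to 38320921 (12.3 kb, score 179), followed by 35003205 to 35015856 (12.7 kb, score 167). Both were touched by all 6 remaining lists. The third, from 44100180 to 44109389 (score 134), was missing from MeJA_TW3 as well, where it ranked first. Gained members were led by 33783595 to 33793756 (10.2 kb, score 119) and 31241128 to 31248157 (score 108), both touched by every list but Moneyberg control. The third ran from 54049868 to 54056411 (score 106).

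BABA_TW3 had lost 38 (2.87%, 2.04% to 3.92%), against 4.49%, and gained 6 of 1242 (0.483%, 0.177% to 1.05%), against 2.69%. Its top lost members ran from 43728668 to 43735852 (score 102) and from 40202098 to 40207137 (score 97), both touched by all 6 remaining lists. The third, from 43386888 to 43393692 (score 96), was also missing from Moneyberg Ina_TW2. The top gained member of BABA_TW3 ran from 33810352 to 33817560 (score 123) and was touched by every list but Moneyberg control. Next came the regions at 33783595 and 31241128 named for BABA_TW2.

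Moneyberg Ina_TW2 had lost 32 (2.42%, 1.66% to 3.39%), against 4.39%, and gained 16 of 1256 (1.27%, 0.730% to 2.06%), against 2.67%. The top lost member ran from 32105383 to 32114671 (score 105) and was touched by the other 6 lists. The second, from 37635513 to 37646097 (10.6 kb, score 97), was touched by all Bolstar lists and, of the Moneyberg treatments, by BABA_TW3 only. Gained members were led by 51627614 to 51636277 (score 118), again touched by all Bolstar lists and by BABA_TW3. The second gained, from 46728967 to 46736877 (score 117), was also gained in MeJA_TW3, and the third was the region at 31241128.

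MeJA_TW3 had lost 54 (4.08%, 3.08% to 5.28%), the most of the 4 Moneyberg treatments, against 5.81%. It had gained 16 of 1215 (1.32%, 0.755% to 2.13%), against 2.88%. Its limit of 71 was also the highest of the Moneyberg lists, and 32 of the 54 had scores below it. Lost members after the one at 44100180 ran from 38042765 to 38050740 (score 110) and from 38994283 to 39000681 (score 98). The top gained member ran from 37219143 to 37226323 (score 118). The third, from 33871838 to 33879582 (7.75 kb, score 116), was touched by all 3 Bolstar lists and by no other Moneyberg list.

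In all 4 Moneyberg comparisons more members were lost than gained, but at the common minimum the order turned in each. Lost and gained were then 19 and 33 for BABA_TW2, 15 and 24 for BABA_TW3, 13 and 24 for Ina_TW2, and 9 and 36 for MeJA_TW3. Lost members were short, with medians of 5.14 to 5.33 kb, and had median scores of 68.5 to 70.0, close to the control's limit of 65. They held 37.9% to 53.2% of the bases found only in Moneyberg control, so the other such bases lay in control members that share at least 1 base with the treatment list. Losses were spread over 17 to 22 of the 26 bins, with at most 6 in a bin, from 45 to 46 Mb under BABA_TW2.

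**Figure D5:**
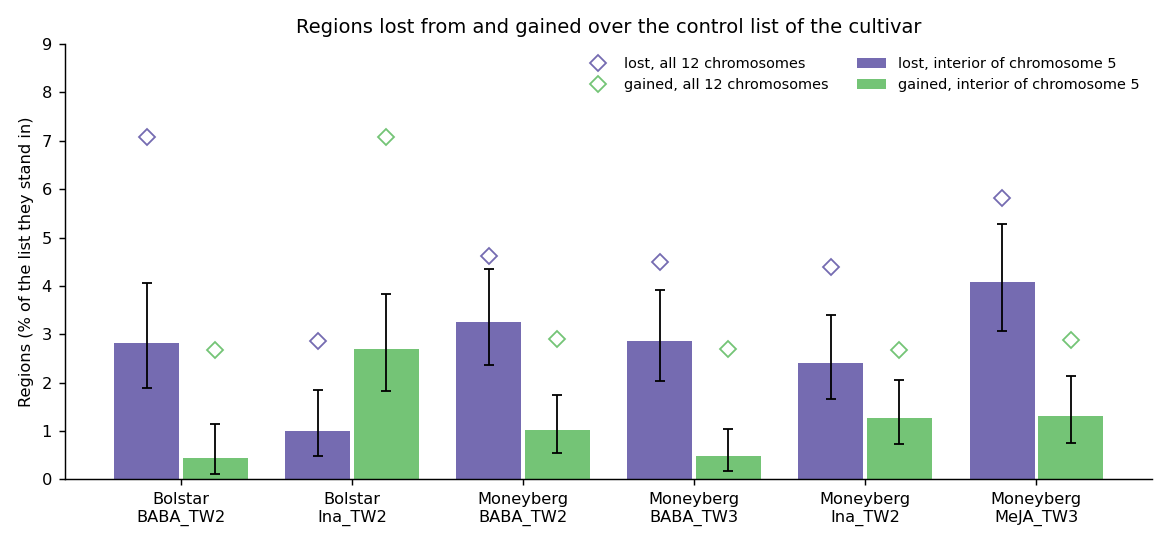
Share of control regions lost (purple) and of treatment regions gained (green) in the interior of chromosome 5 (percent of the list they stand in), with exact 95% intervals for counting error, for the 6 treatments. Diamonds give the same shares over all 12 chromosomes, and every bar lies below its diamond.

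Covered sequence relative to control differed by 0.09 points in Bolstar BABA_TW2 and -0.50 points in Bolstar Ina_TW2. In Moneyberg the differences were 0.05 points for BABA_TW2, 0.08 for BABA_TW3, 0.55 for Ina_TW2 and 0.17 for MeJA_TW3. With all lists at the common minimum the differences kept their sign and were larger, at 0.46 points in Bolstar BABA_TW2, -1.57 in Bolstar Ina_TW2, 1.03 in Moneyberg BABA_TW2, 1.13 in BABA_TW3, 1.28 in Moneyberg Ina_TW2 and 1.84 in MeJA_TW3. The controls stood 2.86 points apart as deposited and 5.82 points apart at the common minimum, further than any treatment from its control in the same setting. The cut at 85 removed 169 members of Moneyberg control and 80 to 128 of each Moneyberg treatment. In Bolstar it removed 66 members of Ina_TW2, 18 of the control and 0 of BABA_TW2. Removal was thus unequal between lists, so larger values at the common minimum are not read as larger differences.

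Other chromosome interiors, taken without the first and last 5 Mb, were set beside that of chromosome 5. Over such an interior of chromosome 5 the listed share was 74.8% in Bolstar and 73.1% in Moneyberg, a difference of 1.74 points. The other 11 ran from -6.56 points on chromosome 6 to 2.21 points on chromosome 12. Fewer Bolstar than Moneyberg regions were the rule elsewhere too. The ratio of mean counts was 0.793 in the interval, which was picked for its difference, and 0.820 over the interior of chromosome 5. On 10 of the other 11 chromosomes it ran from 0.812 (chromosome 12) and 0.815 (chromosome 10) to 0.926, chromosome 6 having 1.05. Every Bolstar list was higher in 28 of the 56 interior bins of chromosome 5, which include the interval. On chromosome 12 this held in 28 of 58 interior bins (48.3%), and on chromosome 10 in 34.5%. Outside the interval it held in 12 of the 40 bins of chromosome 5. The largest mean difference in an interior bin was 6.55 points on chromosome 5, 11.4 points on chromosome 12 and 12.4 points on chromosome 9. No test of these differences was made, since each rests on the same 8 lists.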

How the data were processed

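Whole-genome bisulfite libraries of tomato seed were sequenced with paired ends on an Illumina instrument, per the labels' protocols. Trim Galore is named in the submitters' processing notes. For the aligner, caller, genome build, cytosine context, thresholds and pooling of libraries, the sources used here give nothing. The authors deposited 1 list per group, with 6 columns and no header, in which column 5 is a score per region. Its meaning is not stated.

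The label that names a list, shared by the 12 libraries of a group, tied it to that group. Intervals were compared with Python 3.11.15 and NumPy 2.4.6, and exact binomial (Clopper-Pearson) intervals came from SciPy 1.17.1. The interval arithmetic was checked on simulated lists. Sharing required at least 1 common base. Bins of 1 Mb not complete at a chromosome's last listed base were left out. Coordinates are those of the lists, counted from 1, so no gene, exon or intron was assigned. Depth per sample is unknown, since the lists hold neither reads nor coverage. With 1 list per group no test between groups was run.

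Members, lists and rules were chosen with earlier results of these data known. Named are the 3 lost and 3 gained members of highest score per treatment, 5 each way between the controls, the 5 longest segments particular to each cultivar, the 3 bins at each end of the order of differences, the 3 longest identical members and unlisted stretches, and the longest member of each list. Alternatives were a reciprocal overlap of 50%, the common minimum score, regions at or above the median score of their list, joining of regions under 1 kb apart, other bins and limits, and leaving out each list. The restriction to groups that both cultivars have, and the alternatives for listed share minus control, were added after seeing the data.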

Additional observations from a re-analysis of the deposited data

Results flagged for a closer look

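In the interval Ina_TW2 moved in opposite directions in the cultivars. Gained minus lost members came to 20 in Bolstar and -16 in Moneyberg. The signs were the same over the 12 chromosomes, with 2127 gained and 765 lost in Bolstar, 834 and 1441 in Moneyberg. The other Moneyberg treatments were also negative in the interval, at -30 to -38. The listed share, treatment minus control, was -0.50 percentage points in Bolstar and 0.55 points in Moneyberg. Whole lists covered more than their control in both cultivars, 56.14% against 55.95% in Bolstar and 55.86% against 55.83% in Moneyberg. With 1 list per group the difference between the cultivars was not tested. The lower limit of the Ina_TW2 list was below its control's in Bolstar (71 against 78) and above it in Moneyberg (68 against 65), and its part in the member counts was not tested. At the common minimum the counts turned in either cultivar, to 4 gained and 15 lost in Bolstar and 24 gained and 13 lost in Moneyberg. The differences in listed share kept their sign there and were larger, at -1.57 points in Bolstar and 1.28 points in Moneyberg. That minimum removed 66 members of Ina_TW2 and 18 of the control in Bolstar, and 128 and 169 in Moneyberg. The part of this unequal removal in the larger values was not tested.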

How the results depend on the processing

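No paired analysis was possible because each group is 1 pooled list without values per replicate. Bolstar kept the larger listed share and the longer, fewer and less densely scored members under each alternative run for these values. At the common minimum score of 85 the share difference was 4.39 points, the number difference -168.2 members and the difference in score per kb -0.164. That minimum removed 0 to 66 members of a Bolstar list and 80 to 169 of a Moneyberg list. The larger share difference is therefore not read as a stronger one. Joining regions under 1 kb apart gave -137 members and -0.101. The mean Jaccard index between cultivars was 0.887 at the common minimum and 0.911 after joining, and within Moneyberg 0.938 at the common minimum. Bins with Bolstar higher were 42.3% at 0.5 Mb, and bins with Bolstar lower were 0 at 2 Mb and 7.69% with the groups both cultivars have. In that setting bases of every Bolstar list alone came to 0.626 Mb.

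Leaving out each list in turn gave share differences of 2.44 to 2.73 points, 65.4% to 76.9% of bins with Bolstar higher and 3.85% to 7.69% with Bolstar lower. It gave 0.439 to 0.499 Mb for bases of every Bolstar list alone and 0.157 to 0.273 Mb for every Moneyberg list alone. Leaving out a list can only keep or raise these bin shares and bases, so that direction was fixed in advance. The number of bins with Bolstar lower rose to 2 without Bolstar Ina_TW2 and without MeJA_TW3.

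Listed shares minus control at the common minimum were 0.46 points for Bolstar BABA_TW2, -1.57 for Bolstar Ina_TW2, 1.03 for Moneyberg BABA_TW2, 1.13 for BABA_TW3, 1.28 for Moneyberg Ina_TW2 and 1.84 for MeJA_TW3, and Bolstar control minus Moneyberg control was 5.82. After joining, the share was 0.012 points for Bolstar BABA_TW2 and 0.020 for BABA_TW3. The common minimum removed unequal numbers of members per list, from 0 in Bolstar BABA_TW2 to 169 in Moneyberg control. The cause of these changes was not tested.

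Counts of lost and gained members depended on the definition. Under reciprocal overlap of 50%, lost and gained numbered 212 and 116 for Bolstar BABA_TW2, 102 and 219 for Bolstar Ina_TW2, 204 and 142 for Moneyberg BABA_TW2, 213 and 130 for BABA_TW3, 204 and 135 for Moneyberg Ina_TW2, and 230 and 120 for MeJA_TW3. Members of Bolstar control alone then numbered 230 and of Moneyberg control alone 563. At the common minimum, lost members numbered 17 for Bolstar BABA_TW2, 19 for Moneyberg BABA_TW2, 15 for BABA_TW3, 13 for Moneyberg Ina_TW2 and 9 for MeJA_TW3. Gained members were 4 for Bolstar Ina_TW2, 33 for Moneyberg BABA_TW2, 24 for BABA_TW3 and 36 for MeJA_TW3, and the controls had 37 (Bolstar alone) and 8 (Moneyberg alone). Among regions at or above the median score of their list, gained members were 14 for Bolstar BABA_TW2, 30 for Moneyberg BABA_TW2, 37 for BABA_TW3, 31 for Moneyberg Ina_TW2 and 30 for MeJA_TW3, lost members 17 for Bolstar Ina_TW2, and members of Bolstar control alone 39. That last setting and the common minimum drop small regions from both lists, so a region can count as lost while a smaller one still lies there. The depth behind each list is unknown, which limits every count near a list's lower limit.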
